A study of Homo sapiens with 15 samples.

Results

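The miR-30 family was followed through small RNA sequencing of human HEK293 cell derivatives, both after knockdown of the m6A demethylase FTO and after precipitation with an antibody against m6A. The members were taken by name: the guide arms hsa-miR-30a-5p, hsa-miR-30b-5p, hsa-miR-30c-5p, hsa-miR-30d-5p and hsa-miR-30e-5p, and the 3p arms hsa-miR-30a-3p, hsa-miR-30b-3p, hsa-miR-30d-3p and hsa-miR-30e-3p. All 9 were listed in both sets of counts, which held 2418 miRNAs for the knockdown and 2189 for the RNA immunoprecipitation (RIP-seq). The remaining family arms, hsa-miR-30c-1-3p and hsa-miR-30c-2-3p, are not members and are given beside them.

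The cells were the clones FTO1C1, FTO2D4 and FTO3C3 in every group, derivatives of HEK293, a line of human embryonic kidney origin, that carry a system for inducible expression of a transgene. For the knockdown, each clone was left uninduced and transfected with 10 nM of scrambled siRNA or of FTO siRNA and harvested after 48 h. For RIP-seq, untreated cells of the same clones gave an input library, an m6A precipitate and a precipitate with control IgG. There were 15 libraries, 1 per clone in each of 5 conditions, so n = 3 throughout and the replicates are clones. Values of a group are listed in the order FTO1C1, FTO2D4, FTO3C3. FTO mRNA is not measured in small RNA libraries, so the knockdown itself was not checked here.

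Levels are given as reads per 1000000 miRNA reads (RPM). The knockdown libraries held 1991317 to 3876806 miRNA reads and the RIP-seq libraries 186446 (IgG, FTO3C3) to 4973238 (m6A, FTO3C3). In the RIP-seq libraries a single miRNA, miR-6080, took 15.5 to 71.6% of the reads and therefore sets much of the scale of RPM. Its count was the same number, 563404, in the m6A and the IgG library of FTO2D4, the only such equality among miRNAs over 10000 reads in 51 pairs of libraries. Calls of members that were lost without FTO2D4 or without this miRNA in the totals are given beside the result.

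A miRNA hairpin is cut by Drosha and Dicer into a duplex of a 5p and a 3p strand, of which usually 1, the guide, is loaded into Argonaute while the other, the passenger, is mostly degraded. Bases 2 to 8 of the loaded strand, the seed, pair with the target mRNA. The miR-30 guides come from the 5p arms and are known for restraining epithelial-to-mesenchymal transition and for their abundance in kidney. FTO removes the methyl group of N6-methyladenosine (m6A).

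The mature sequences are shown because the arms fall into seed groups and because close relatives can hold each other's reads. RefSeq (GRCh38.p14) gave sequences for 5 of the 9 members and for both miR-30c 3p arms. They are written 5′ to 3′ with the seed in capitals.
hsa-miR-30a-5p: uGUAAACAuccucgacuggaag
hsa-miR-30c-5p: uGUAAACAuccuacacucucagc
hsa-miR-30e-5p: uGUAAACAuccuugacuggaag
hsa-miR-30a-3p: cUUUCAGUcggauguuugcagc
hsa-miR-30e-3p: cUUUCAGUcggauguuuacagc
hsa-miR-30c-1-3p: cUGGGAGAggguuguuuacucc
hsa-miR-30c-2-3p: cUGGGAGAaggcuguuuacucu

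The 3 guides shown share 1 seed, and hsa-miR-30a-3p and hsa-miR-30e-3p share another. No other name in the table carried either seed. The table held no sequence for hsa-miR-30b-5p, hsa-miR-30d-5p, hsa-miR-30b-3p and hsa-miR-30d-3p, so their seeds were not compared and may be the same. The miR-30c 3p arms have a different seed, found in 3 names of the table. hsa-miR-30a-5p and hsa-miR-30e-5p differ by C13U, counted from the 5′ end, and hsa-miR-30a-3p and hsa-miR-30e-3p by G18A. Reads were matched through exact matches of 7 bases or more that together covered at least 17 bp, and an ambiguous read went to its best match. A read of 17 bp from the 5′ end covers position 13 but not position 18, so the shortest 3p reads cannot be told apart between hsa-miR-30a-3p and hsa-miR-30e-3p. MIR30E (chr1:40754355-40754446) and MIR30C1 (chr1:40757284-40757372) lie 2837 bases apart on the plus strand inside NFYC, which encodes a subunit of the transcription factor NF-Y. MIR30A (chr6:71403551-71403621) and MIR30C2 (chr6:71376960-71377031) lie 26519 bases apart on the minus strand, with no gene of the table spanning them. Both MIR30C1 and MIR30C2 give the same hsa-miR-30c-5p, so its 5p reads cannot be divided between the 2 hairpins. The letters GAC or AAC, the core of the m6A consensus, were searched on the RNA strand itself. The first stands at position 14 of hsa-miR-30a-5p and hsa-miR-30e-5p, the second at position 5 of all 3 guides, and neither is in the 3p arms shown. Of 2370 mature human names in the table, 36.1% held either.

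In scrambled siRNA cells the 9 members took 3.77% ± 0.49 (SD, n = 3) of all miRNA reads, and the guide arms alone 3.63% ± 0.49. After FTO knockdown the share of all 9 was 3.06% ± 0.20. By clone the 9 members took 3.22, 4.16 and 3.94% in the control libraries, against 3.26, 3.06 and 2.86% after knockdown. These groups overlapped, the share was not lower in FTO1C1, and the difference was not tested. The RNA is from bulk cultures, so fewer cells with a miRNA and less of it per cell cannot be told apart. In untreated cells it was 1.62% ± 0.43 in the input, 0.121% ± 0.0055 in the m6A precipitate and 0.0193% ± 0.0089 in the IgG precipitate. The order of the guides by level in scrambled siRNA cells was hsa-miR-30e-5p, hsa-miR-30a-5p, hsa-miR-30d-5p, hsa-miR-30c-5p and hsa-miR-30b-5p. All neighbours in this order were separated in all libraries, from 17917 ± 1909 RPM for the first to 304 ± 34 RPM for the last. In the input the first 2 could not be separated, with 7116 ± 1814 RPM for hsa-miR-30e-5p and 6853 ± 2225 RPM for hsa-miR-30a-5p. Among the 3p arms of scrambled siRNA cells, hsa-miR-30e-3p was the most abundant with 836 ± 46 RPM, and hsa-miR-30b-3p the least with 19.1 ± 2.9 RPM. hsa-miR-30a-3p (314 ± 36 RPM) and hsa-miR-30d-3p (256 ± 42 RPM) overlapped between them.

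**Figure D1:**
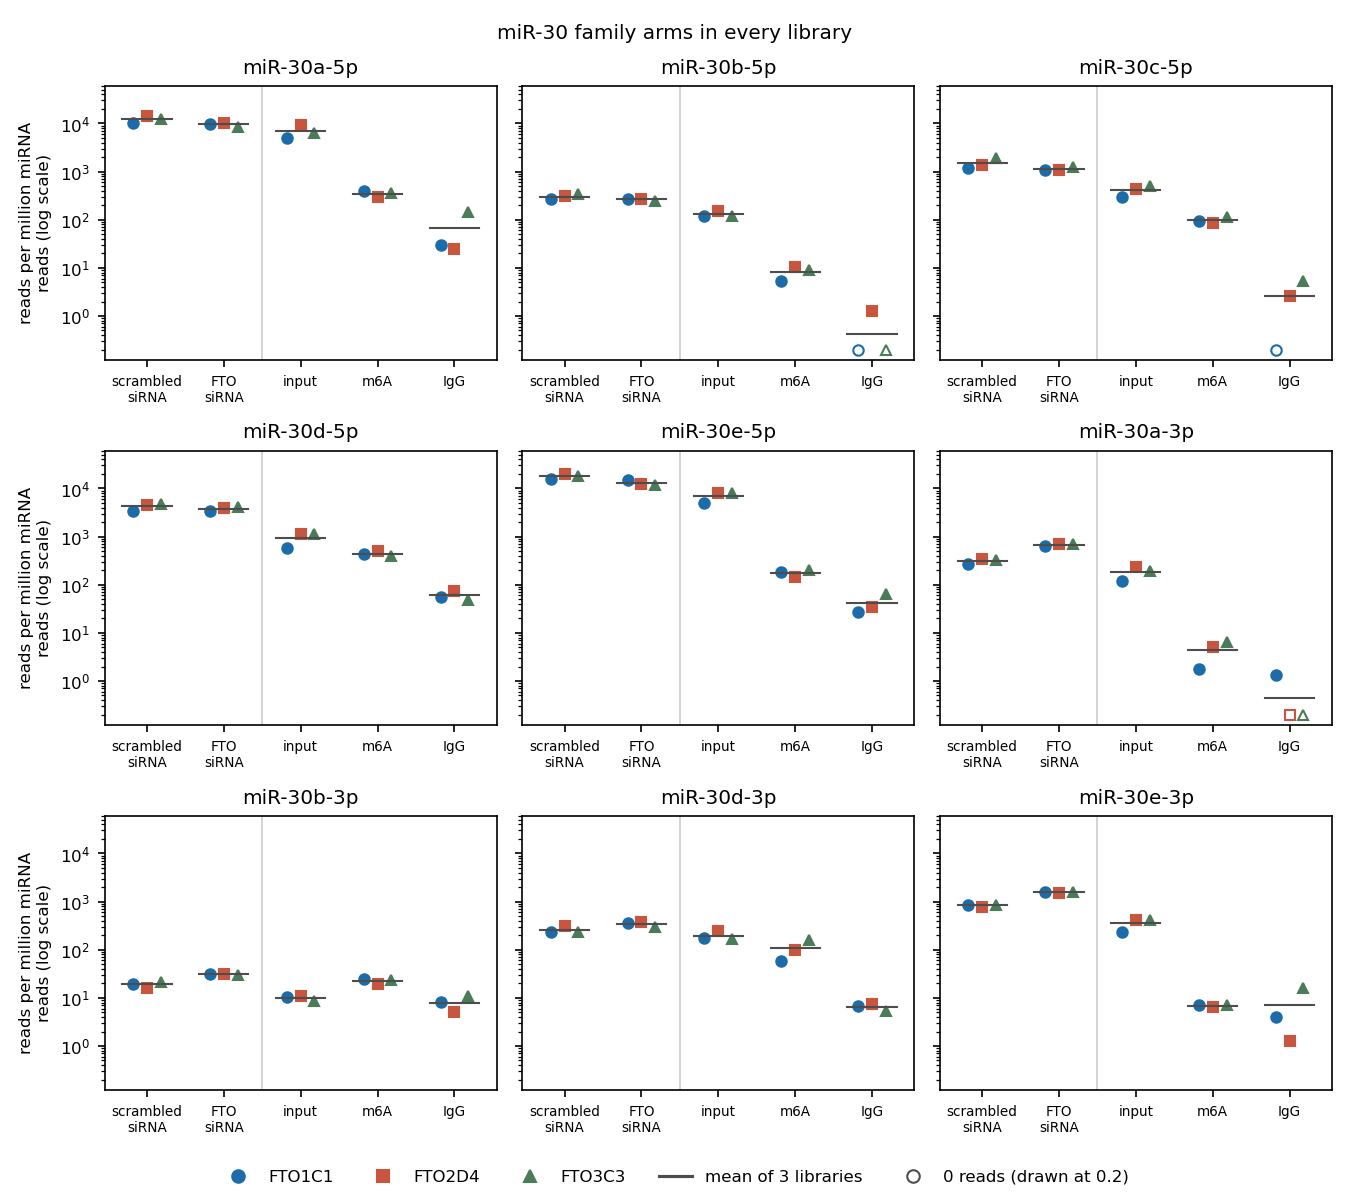
RPM of the 9 members on a log axis in every library, with 1 symbol per clone, a line at the mean of 3 libraries and open symbols for 0 reads. The guide arms fall from the input to the m6A and again to the IgG precipitate, whereas hsa-miR-30b-3p stays between 5.08 and 24.6 RPM in all 9 RIP-seq libraries.

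The first comparison asked whether miRNA levels change when FTO is reduced. Of the family, hsa-miR-30a-3p and hsa-miR-30e-3p rose 2.16- and 1.85-fold, whereas no guide arm passed the test. All 5 guides had a negative log2 fold change, but the clones differed. In FTO2D4 and FTO3C3 every guide was lower after knockdown, at 0.632 to 0.893 times its control level. In FTO1C1 hsa-miR-30b-5p stood at 1.02 times its control level, and the other guides at 0.890 to 0.980 times. In the quasi-likelihood test of edgeR, adjusted by Benjamini-Hochberg over 2374 miRNAs, 118 miRNAs were higher (4.97%) and 12 lower (0.505%) at an adjusted p under 0.05. Of the 9 members, 2 were higher and none lower. The median log2 fold change was -0.35 over the guide arms and 0.79 over the 3p arms, against 0.29 over all miRNAs tested. With TMM factors, which move the median of all miRNAs to -0.00035, 21 miRNAs were higher and 34 lower.

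hsa-miR-30a-3p held 273, 336 and 332 RPM with scrambled siRNA and 638, 701 and 690 RPM with FTO siRNA. Every FTO siRNA library was above every scrambled siRNA library, and the ratio within a clone was 2.17 ± 0.15. Its log2 fold change was 1.11 (SE 0.15) with an adjusted p of 0.00502 in edgeR's quasi-likelihood test, rank 24 from the highest of 2374.

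hsa-miR-30e-3p, which shares the seed, held 868, 783 and 856 RPM with scrambled siRNA and 1612, 1481 and 1546 RPM with FTO siRNA. The groups did not overlap here either, and the ratio within a clone varied little, at 1.85 ± 0.042. Its log2 fold change was 0.89 (SE 0.14, adjusted p = 0.00869 in edgeR's quasi-likelihood test). With TMM factors it missed the threshold, with a log2 fold change of 0.60 and an adjusted p of 0.0597, whereas hsa-miR-30a-3p kept its call. Without FTO1C1 neither passed, at log2 fold changes of 1.06 (adjusted p = 0.147) and 0.89 (adjusted p = 0.165) in edgeR's test.

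hsa-miR-30b-3p held 19.8, 15.8 and 21.6 RPM with scrambled siRNA and 31.6, 31.5 and 29.1 RPM with FTO siRNA. These groups did not overlap, but the counts were low (39 to 113 reads) and the log2 fold change of 0.70 (SE 0.20) had an adjusted p of 0.0679 in edgeR's quasi-likelihood test. Without FTO3C3 the adjusted p was 0.0468 at a log2 fold change of 0.82. For hsa-miR-30d-3p the levels were 233, 305 and 231 RPM with scrambled siRNA and 366, 380 and 291 RPM with FTO siRNA. The groups overlapped, and the log2 fold change was 0.43 (SE 0.16, adjusted p = 0.12 in edgeR's test).

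The 3p arms of miR-30c, with a seed unlike that of hsa-miR-30a-3p and hsa-miR-30e-3p, had log2 fold changes of 0.04 (SE 0.15) for hsa-miR-30c-1-3p and -0.02 (SE 0.20) for hsa-miR-30c-2-3p. Neither passed edgeR's test, with adjusted p of 0.894 and 0.954. The sign of the first is negative with TMM factors and with DESeq2, and that of the second positive without FTO1C1. The ratio of neighbouring hairpins within a library does not depend on the totals. hsa-miR-30e-3p per hsa-miR-30c-1-3p read, the pair inside NFYC, was 4.34, 4.13 and 4.11 with scrambled siRNA against 7.54, 7.89 and 7.26 with FTO siRNA. hsa-miR-30a-3p per hsa-miR-30c-2-3p read went from 5.94 ± 1.2 to 12.8 ± 0.47. Neither pair of groups overlapped. A two-sided exact permutation test gave 0.1 for both, the smallest p that 3 against 3 libraries allow, or 0.133 adjusted over the 4 such ratios computed. Within clones both were higher in 3 of 3, with an exact permutation p of 0.25, the smallest that 3 pairs allow. Reads of hsa-miR-30e-5p per hsa-miR-30c-1-3p read were 90.2 ± 12 with scrambled and 64.5 ± 7.9 with FTO siRNA, lower in 3 of 3 clones (exact permutation p = 0.1, adjusted 0.133). hsa-miR-30a-5p per hsa-miR-30c-2-3p read was 173, 305 and 226 for the scrambled control, compared with 206, 187 and 155 after FTO knockdown. It was higher in FTO1C1 and lower in the other clones, and the groups overlapped (exact permutation p = 0.3, adjusted 0.3). These 4 ratios were chosen after seeing the data. How often such ratios of other miRNAs separate was not computed, so the separations are a description only.

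Among the guides, hsa-miR-30e-5p held 15805, 19519 and 18426 RPM with scrambled siRNA and 15341, 12339 and 11930 RPM with FTO siRNA. It is the only member whose FTO siRNA libraries were all lower, but in FTO1C1 the ratio was 0.971, against 0.632 and 0.647 in the other clones. Its log2 fold change was -0.44 (SE 0.15, adjusted p = 0.106 in edgeR's quasi-likelihood test). Of all miRNAs tested, 1.94% had non-overlapping groups with FTO siRNA lower and 26.7% with FTO siRNA higher. Among the members 1 was of the first kind, and 3 of the second, hsa-miR-30a-3p, hsa-miR-30b-3p and hsa-miR-30e-3p.

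hsa-miR-30a-5p held 10033, 14471 and 12501 RPM with scrambled siRNA and 9838, 10405 and 8525 RPM with FTO siRNA, and the groups overlapped. Its log2 fold change was -0.35 (SE 0.14, adjusted p = 0.156 in edgeR's test). hsa-miR-30c-5p had 1507 ± 380 RPM with scrambled and 1130 ± 91 RPM with FTO siRNA (log2 fold change -0.39, SE 0.15, adjusted p = 0.140 in edgeR's test). The smallest values were those of hsa-miR-30b-5p (-0.20, SE 0.16, adjusted p = 0.445) and hsa-miR-30d-5p (-0.14, SE 0.13, adjusted p = 0.508) in the same test.

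The number of guides called differed between the tests. Beside 0 of 5 at the adjusted threshold, 3 of 5 had an unadjusted p under 0.05 in edgeR's test. With TMM factors hsa-miR-30c-5p was called lower (-0.68, adjusted p = 0.0396) but not hsa-miR-30a-5p (-0.64, adjusted p = 0.0656) or hsa-miR-30e-5p (-0.73, adjusted p = 0.0579), and with DESeq2 hsa-miR-30a-5p, hsa-miR-30c-5p and hsa-miR-30e-5p were (-0.65, -0.68 and -0.74, with adjusted p of 0.0112, 0.0047 and 0.00449).

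The 5p to 3p ratio of 1 hairpin within a library removes the scale. It fell in all 3 clones for miR-30a, miR-30b, miR-30d and miR-30e, and most for miR-30a and miR-30e. For miR-30a there were 36.8, 43.0 and 37.6 reads of the 5p arm per 3p read with scrambled siRNA against 15.4, 14.8 and 12.4 with FTO siRNA. For miR-30e the ratios were 18.2, 24.9 and 21.5 with scrambled siRNA against 9.51, 8.33 and 7.72 with FTO siRNA. The groups stood clearly apart in both hairpins.

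Over 693 hairpins with both arms counted, the quasi-likelihood test of edgeR on arm by group, adjusted by Benjamini-Hochberg, called 4 higher (0.577%) and 5 lower (0.722%). Of the 4 family hairpins, 2 were called lower. The log2 change of the ratio was -1.47 (SE 0.17, adjusted p = 0.00131) for miR-30a and -1.33 (SE 0.18, adjusted p = 0.00228) for miR-30e, ranks 3 and 4 from the lowest of 693. The median over all hairpins was 0.01. The calls depend on the test and on 1 clone. limma on log2 ratios gave the same log2 changes with adjusted p of 0.164 and 0.266. Without FTO1C1 edgeR gave -1.57 and -1.53, both with an adjusted p of 0.103, although the ratio fell in each clone. Over all hairpins, limma called 1 of 693 higher and 0 lower, and edgeR without FTO1C1 called 0 of 610 in either direction.

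For miR-30b the ratio was 13.6, 19.3 and 15.6 with scrambled siRNA against 8.64, 8.67 and 8.37 with FTO siRNA, again without overlap. For miR-30d it was 14.9, 14.7 and 20.6 with scrambled siRNA against 9.30, 10.4 and 14.1 with FTO siRNA. In miR-30d the lowest scrambled siRNA value lay above the highest FTO siRNA value by a small margin only. The log2 changes of -0.89 (SE 0.26) and -0.57 (SE 0.17) both had an adjusted p of 0.176 in edgeR's quasi-likelihood test. The share of all hairpins whose ratios separate in this way was not computed, so the separations of the family hairpins are a description only.

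**Figure D2:**
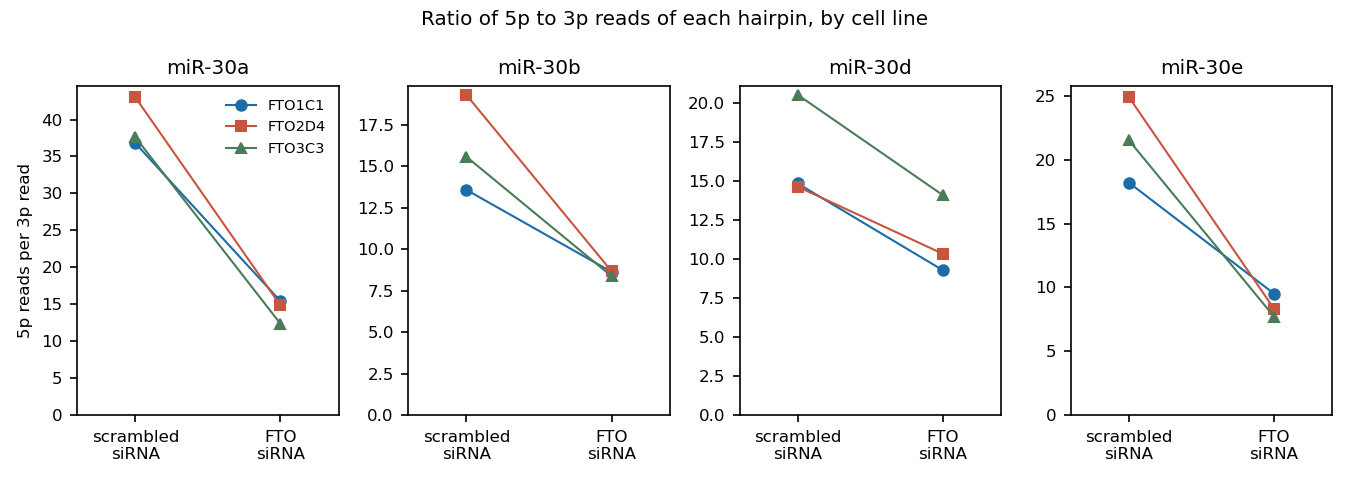
Reads of the 5p arm per read of the 3p arm for each hairpin (linear axes from 0, 1 scale per panel), with 1 line per clone from scrambled siRNA to FTO siRNA. All 12 lines slope down, most steeply for miR-30a, from a mean of 39.1 to 14.2, and for miR-30e, from 21.6 to 8.52. How often the lines of other hairpins do so was not counted.

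The RIP-seq libraries ask which miRNAs are bound by an antibody against m6A, with IgG as the background. In edgeR's quasi-likelihood test over 2054 miRNAs, 792 (38.6%) were higher in the m6A than in the IgG precipitate and 26 (1.27%) lower. With TMM factors the split was 453 higher and 302 lower, and without miR-6080 in the totals 446 and 257. Of the 9 members 6 had enough reads for the test, which needed 13.1 RPM in 3 libraries. The guides hsa-miR-30a-5p, hsa-miR-30d-5p and hsa-miR-30e-5p reached this in all IgG libraries as well, and these 3 were called higher. The other 3, hsa-miR-30c-5p, hsa-miR-30b-3p and hsa-miR-30d-3p, reached it in no IgG library. They entered only through the m6A libraries and had to be higher, so for them the values are given as a description, with no p. Without miR-6080 in the totals the fold changes were smaller, at 2.20, 2.18 and 1.48 on the log2 scale for hsa-miR-30a-5p, hsa-miR-30d-5p and hsa-miR-30e-5p, with adjusted p of 0.00739, 0.00157 and 0.0158 in edgeR's test.

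hsa-miR-30c-5p had 0, 2 and 1 reads in the IgG libraries and 54, 116 and 566 reads in the m6A libraries. In RPM these were 0, 2.54 and 5.36 against 94.8, 85.1 and 114. A count of 0 in FTO1C1 allows up to 4.05 RPM, taking 3 reads as the limit. The summed counts, 736 against 3 reads, give a ratio of 60.9 with an exact 95% interval from 20.8 to 296 for counting error only. The sums weight the clones by depth, with 566 of the m6A reads from FTO3C3. Within a clone the ratio was lower, at 33.5 in FTO2D4 and 21.2 in FTO3C3, and could not be computed in FTO1C1.

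hsa-miR-30d-5p held 56.6, 75.0 and 48.3 RPM in the IgG and 442, 495 and 389 RPM in the m6A precipitates. The ratio was similar in all clones, at 7.49 ± 0.78. The log2 fold change was 2.88 (SE 0.30, adjusted p = 0.00012 in edgeR's test).

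hsa-miR-30a-5p held 29.7, 24.2 and 145 RPM in the IgG and 390, 298 and 356 RPM in the m6A precipitates. Its ratios of 13.1, 12.3 and 2.46 set FTO3C3 apart, where the IgG value rests on 27 reads of the smallest library. The log2 fold change was 2.88 (SE 0.51, adjusted p = 0.00223 in edgeR's test), and without FTO2D4 it was 2.49 with an adjusted p of 0.0662. For hsa-miR-30e-5p the levels were 27.0, 34.3 and 64.4 RPM in the IgG and 184, 142 and 204 RPM in the m6A precipitates. The groups did not overlap, but the share of all miRNAs that separate between these precipitates was not computed. The log2 fold change was 2.17 (SE 0.37, adjusted p = 0.00166 in edgeR's test).

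Among the 3p arms hsa-miR-30d-3p held 6.74, 7.63 and 5.36 RPM in the IgG and 59.7, 99.8 and 163 RPM in the m6A precipitates. The m6A values differed by more than 2-fold between the clones FTO1C1 and FTO3C3, but all lay far above the IgG values. The IgG values rest on 5, 6 and 1 reads, and the summed counts of 981 against 12 reads give a ratio of 20.3 (exact 95% interval 11.6 to 39.4, counting error only). FTO3C3 gave 811 of these m6A reads, and the ratio within a clone was 8.85, 13.1 and 30.4. hsa-miR-30b-3p held 8.09, 5.08 and 10.7 RPM in the IgG and 24.6, 19.8 and 23.1 RPM in the m6A precipitates. Its IgG values rest on 6, 4 and 2 reads. The log2 fold change was 1.61 (SE 0.50), against 0.85 with TMM factors and 0.80 with DESeq2.

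The remaining 3 members had too few reads. For hsa-miR-30b-5p the summed counts were 61 reads in the m6A and 1 in the IgG precipitates, a ratio of 15.1 (exact 95% interval 2.62 to 608, counting error only). For hsa-miR-30a-3p they were 40 and 1 (ratio 9.93, interval 1.68 to 402), and for hsa-miR-30e-3p 48 and 7 (ratio 1.70, interval 0.766 to 4.46). The last interval includes 1, so no difference was detectable for hsa-miR-30e-3p at this depth. These sums also weight the clones by depth. Within a clone the ratio was 1.74, 5.20 and 0.437 for hsa-miR-30e-3p. It could be computed only in FTO2D4 for hsa-miR-30b-5p (8.08) and only in FTO1C1 for hsa-miR-30a-3p (1.30). Beside the members, hsa-miR-30c-2-3p was higher (1.46, SE 0.40, adjusted p = 0.0174 in edgeR's test) and hsa-miR-30c-1-3p was not called (0.26, SE 0.43, adjusted p = 0.655). The call of hsa-miR-30c-2-3p was lost with TMM factors, with DESeq2, without miR-6080 in the totals and when any 1 clone was left out, and the sign of hsa-miR-30c-1-3p turned in 4 alternatives.

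**Figure D3:**
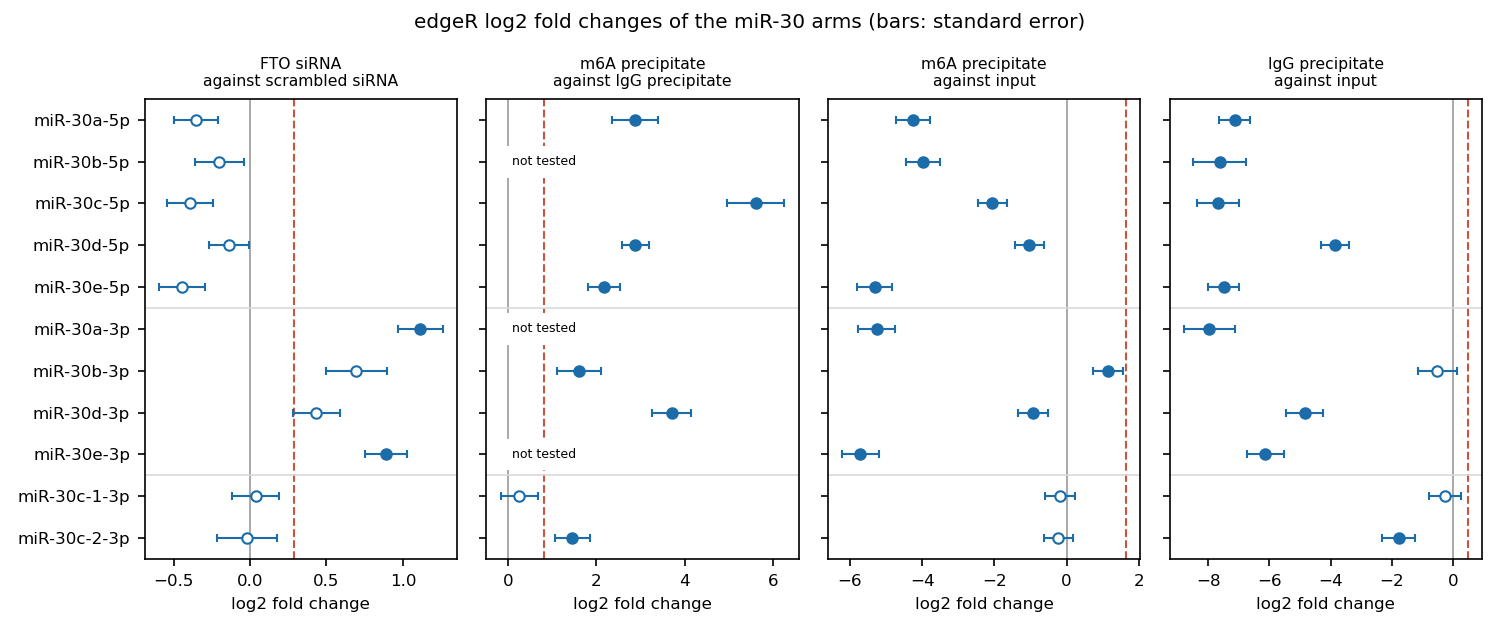
log2 fold changes with standard errors for the 11 family arms in 4 comparisons by edgeR. Filled symbols passed an adjusted p of 0.05, also where an arm reached the count filter through 1 group alone, the dashed line is the median of all miRNAs tested, and the horizontal lines part the guide arms, the 3p members and the miR-30c 3p arms. With FTO siRNA the 5 guides lie below 0 and the 4 3p members above it, and against the input most members lie far to the left of the dashed line.

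Against the input, which holds the levels before precipitation, most of the family was less abundant in the m6A precipitate. edgeR's quasi-likelihood test over 2174 miRNAs called 1452 higher (66.8%) and 229 lower (10.5%). With TMM factors, which move the median of all miRNAs from 1.65 to 0.10, 575 were higher and 614 lower. Of the 9 members, 8 were lower and 1 higher, and the same 8 and 1 had groups that did not overlap, as did 11.2% and 68.2% of all miRNAs tested. The test needed 6.97 RPM in 3 libraries, which hsa-miR-30a-3p reached in no m6A library, so that it had to be lower and gets no p. hsa-miR-30b-5p and hsa-miR-30e-3p reached it in only 2 of 3 m6A libraries and needed the input to enter, so they get no p either. The count of 8 includes these arms and is no support in itself. RPM is a share of a library, so these fold changes are relative to the other miRNAs of that library.

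hsa-miR-30e-5p held 5021, 8176 and 8151 RPM in the input and 184, 142 and 204 RPM in the m6A precipitate. This is 39.8-fold lower, a log2 fold change of -5.32 (SE 0.49, adjusted p = 1.18e-09 in edgeR's test). The size depends on the scale: the log2 fold change was -6.87 with TMM factors, -6.89 with DESeq2 and -4.85 without miR-6080 in the totals. hsa-miR-30a-5p held 4936, 9292 and 6329 RPM in the input, a log2 fold change of -4.26 (SE 0.47, adjusted p = 1.41e-08 in edgeR's test), or -5.81 with TMM factors and -3.79 without miR-6080. Only 0.644 and 1.24% of all miRNAs tested lay below them.

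hsa-miR-30d-5p held 580, 1110 and 1121 RPM in the input and 442, 495 and 389 RPM in the m6A precipitate. Its log2 fold change was -1.03 (SE 0.40, adjusted p = 0.0212 in edgeR's test), a smaller difference than for the 2 most abundant guides. The call was lost without miR-6080 in the totals (-0.57, adjusted p = 0.254) and without FTO2D4 (-0.96, adjusted p = 0.0955) or FTO3C3 (-0.78, adjusted p = 0.101). hsa-miR-30c-5p (-2.05, SE 0.40, adjusted p = 4.77e-05) and hsa-miR-30b-5p (-3.97, SE 0.47) lay between in edgeR's test. The m6A values of hsa-miR-30b-5p rest on 3, 14 and 44 reads.

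For the 3p arms the range was wider. hsa-miR-30e-3p fell from 352 ± 103 to 6.89 ± 0.25 RPM (-5.71, SE 0.50) and hsa-miR-30a-3p went from 183 ± 57 to 4.44 ± 2.4 RPM (-5.26, SE 0.51). Their m6A values rest on 4, 9 and 35 reads for hsa-miR-30e-3p and on 1, 7 and 32 reads for hsa-miR-30a-3p. hsa-miR-30d-3p held 176, 244 and 166 RPM in the input against 59.7, 99.8 and 163 RPM in the m6A precipitate, so that in FTO3C3 the levels were nearly the same (ratio 0.983). Its log2 fold change of -0.94 (SE 0.42, adjusted p = 0.0411 in edgeR's test) lost its call without miR-6080 in the totals (-0.49, adjusted p = 0.343), without FTO1C1 (-0.65, adjusted p = 0.26) and without FTO2D4 (-0.76, adjusted p = 0.227).

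hsa-miR-30b-3p was the exception among the members, with 10.6, 11.0 and 8.66 RPM in the input and 24.6, 19.8 and 23.1 RPM in the m6A precipitate. The log2 fold change was 1.16 (SE 0.42, adjusted p = 0.0136 in edgeR's test), below the median of all miRNAs (1.65), and its input values rest on 15, 16 and 13 reads. Its direction depends on the scale: it was -0.39 with TMM factors (adjusted p = 0.342) and -0.42 with DESeq2 (adjusted p = 0.544). Without FTO3C3 the call was lost, with a log2 fold change of 1.01 and an adjusted p of 0.0691. The miR-30c 3p arms, also of low level, were not called (-0.19, SE 0.41, adjusted p = 0.686 and -0.23, SE 0.40, adjusted p = 0.604 in edgeR's test). Both were called lower with TMM factors (-1.75 and -1.78) and with DESeq2 (-1.73 and -1.81), and both had positive signs without miR-6080 in the totals.

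In the IgG precipitate the family was lower still. Against the input, edgeR's quasi-likelihood test over 1941 miRNAs called 714 higher (36.8%) and 423 lower (21.8%) in the IgG precipitate, or 559 and 586 with TMM factors. The same 8 members were lower, but the count is no support in itself. The test needed 9.11 RPM in 3 libraries, and hsa-miR-30b-5p (0, 1 and 0 reads), hsa-miR-30c-5p, hsa-miR-30a-3p (1, 0 and 0 reads) and hsa-miR-30d-3p reached this in no IgG library, so these 4 entered only through the input and had to be lower. The 3 guides over it in all libraries ranged from -7.50 for hsa-miR-30e-5p to -3.87 for hsa-miR-30d-5p (SE 0.46, adjusted p = 7.23e-16 in edgeR's test), the latter -2.71 without miR-6080 in the totals. The IgG to input ratio within a clone was 0.0694 ± 0.027 for hsa-miR-30d-5p and 0.00582 ± 0.0019 for hsa-miR-30e-5p. hsa-miR-30b-3p was not called (-0.51, SE 0.64, adjusted p = 0.512), and without miR-6080 its sign turned (0.63, adjusted p = 0.324).

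The composition of the guide pool differed between the input and the precipitates. In the input hsa-miR-30e-5p and hsa-miR-30a-5p made up 46.2% ± 3.8 and 44.2% ± 4.8 of the guide reads, hsa-miR-30d-5p 6.00% ± 0.83, hsa-miR-30c-5p 2.68% ± 0.38 and hsa-miR-30b-5p 0.887% ± 0.19. In the m6A precipitate hsa-miR-30d-5p was the largest with 41.3% ± 6.1, and hsa-miR-30c-5p held 9.13% ± 1.3. hsa-miR-30a-5p and hsa-miR-30e-5p held 32.4% ± 3.1 and 16.4% ± 2.6.

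Reads of hsa-miR-30d-5p per read of hsa-miR-30e-5p were 0.116, 0.136 and 0.138 in the input and 2.40, 3.49 and 1.91 in the m6A precipitate. Of the 10 ratios between 2 guides, 9 did not overlap between input and m6A, and hsa-miR-30a-5p to hsa-miR-30b-5p did. The ratios share their arms, and the share among ratios of other miRNAs was not computed, so this count is a description only. Of all single miRNAs tested, 68.2% were higher and 11.2% lower in the m6A precipitate without overlap. The two-sided exact permutation test gave 0.1 for each of the 9, the smallest value of 3 against 3 libraries, or 0.111 adjusted over the 10 ratios, and 0.6 for the other. Within clones the exact permutation p was 0.25 for each of the 9, the smallest that 3 pairs allow. hsa-miR-30a-5p and hsa-miR-30e-5p, 1 base apart, also separated: 0.983, 1.14 and 0.776 in the input and 2.11, 2.10 and 1.75 in the m6A precipitate. hsa-miR-30c-5p per read of hsa-miR-30e-5p went from 0.0579 ± 0.0036 to 0.558 ± 0.043.

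The IgG libraries, with 49 to 108 guide reads each, give the background of this composition. There hsa-miR-30d-5p held 41.0% ± 20 of the guide reads, close to its mean share in the m6A precipitate, with 18.4% in FTO3C3 and up to 54.6% in FTO2D4. Its part in the m6A value was not tested. hsa-miR-30a-5p held 33.0% ± 20 and hsa-miR-30e-5p 24.4% ± 0.60. hsa-miR-30c-5p held 1.30% ± 1.1, below its share in every m6A library. In the knockdown libraries the pool changed little, with hsa-miR-30d-5p at 11.6% ± 0.75 for scrambled and 13.7% ± 2.2 for FTO siRNA, where the libraries overlapped.

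**Figure D4:**
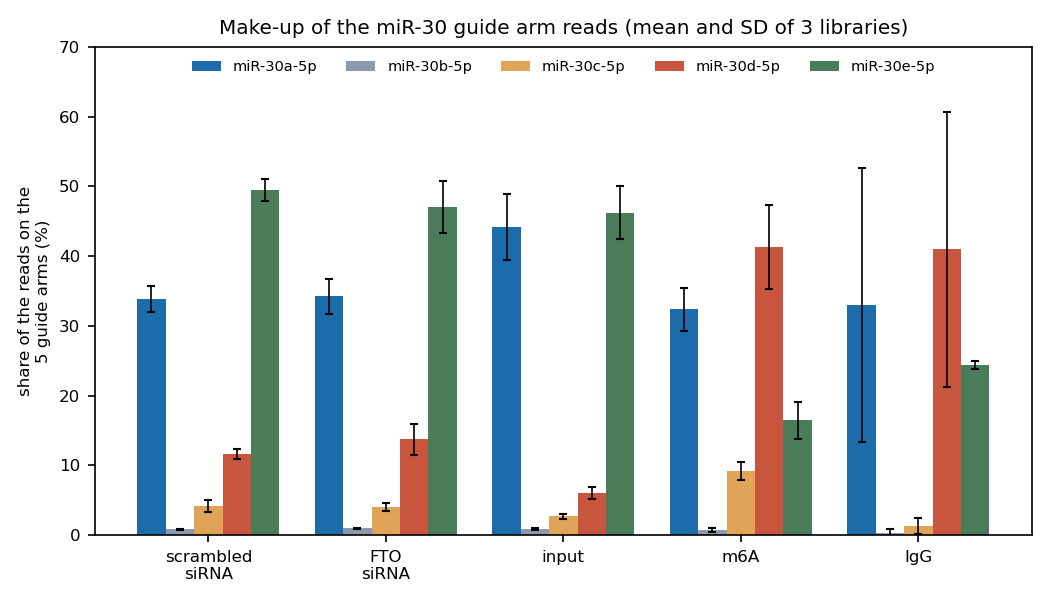
Share of each guide in the reads of the 5 guides for the 5 conditions, as bars from 0 with the mean and SD of 3 libraries. hsa-miR-30d-5p goes from 6.00% in the input to 41.3% in the m6A precipitate, and it is at 41.0% with a wide SD in the IgG precipitate.

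Of the family hairpins, miR-30b had an arm ratio that passed the test in the m6A precipitate. Its 5p to 3p ratio was 11.3, 14.1 and 14.1 in the input and 0.214, 0.519 and 0.383 in the m6A precipitate, so that the 3p arm outnumbered the guide. Of 598 hairpins, edgeR's quasi-likelihood test called 184 with a higher (30.8%) and 137 with a lower ratio (22.9%) against the input. Of the 4 family hairpins 1, miR-30b, was lower (-5.15, SE 0.46, adjusted p = 0.000176). miR-30a (0.94, SE 0.42, adjusted p = 0.0935), miR-30e (0.32, SE 0.33, adjusted p = 0.441) and miR-30d (-0.10, SE 0.54, adjusted p = 0.891) were not called. miR-30d differed between clones, with ratios of 7.41, 4.96 and 2.38 in the m6A precipitate. The miR-30b ratio was likewise low in the IgG precipitate, with 0, 0.25 and 0 on 12 reads of the 3p arm in all.

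Against IgG only miR-30b and miR-30d had enough reads. Of 591 hairpins 20.8% were called higher and 10.7% lower, and neither of the 2 was called, with log2 changes of the ratio of 1.96 (SE 1.3, adjusted p = 0.272) and -0.85 (SE 0.56, adjusted p = 0.269) in edgeR's quasi-likelihood test. Their unadjusted p values were 0.164 and 0.161, and limma called 0 of the 2 as well.

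Across all 15 libraries most members moved together. Over log2(RPM + 1), Pearson's r of hsa-miR-30a-5p was 0.988 with hsa-miR-30e-5p and 0.929 with hsa-miR-30d-5p, but 0.517 with hsa-miR-30b-3p. Among 431 other miRNAs with a mean of at least 100 RPM, those most like the mean of the guides were miR-151a-5p (0.992), miR-26a-5p (0.991) and miR-192-5p (0.987), against a median of 0.596. Those most like the mean of the 3p members were miR-1184 (0.994), let-7i-5p (0.986) and miR-181d-5p (0.981), against a median of 0.583. The points share libraries and the steps between conditions, which set much of these values, so they are a description only.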

How the data were processed

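Small RNA was sequenced from 3 clones in 5 conditions. The authors deposited raw counts of reads per mature miRNA: adapters were trimmed with cutadapt (version not given in the sources used here), reads of 16 to 28 bp were kept and matched to miRBase release 20 through maximal exact matches (7 bases or more, covering 17 bp or more), and an ambiguous read went to its best match. No genome was used, and genomic positions come from RefSeq.

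The counts were scaled to RPM by the miRNA total of each library. Levels were compared with the quasi-likelihood test of edgeR 4.0.16 (R 4.3.3; filterByExpr with a minimum count of 10, totals as library sizes, cell line as a block, Benjamini-Hochberg over all miRNAs tested, threshold 0.05), and SE is the log2 fold change divided by the square root of F. Every adjusted p comes from this test unless DESeq2 1.42.0 or limma 3.58.1 is named. Arm ratios were tested by the interaction of arm and group in edgeR over all hairpins with at least 60 summed reads on each arm. Ratios between family arms were compared by two-sided exact permutation tests (scipy 1.17.1) of 3 against 3 libraries, which do not use the pairing by clone. The same ratios were also tested within clones, where 3 pairs cannot give a p under 0.25. This test and the ratios to the miR-30c 3p arms were chosen after seeing the data. Intervals and limits from counts cover counting error only, since the reads carry no molecular identifiers. The fits were also run on simulated counts with a fixed dispersion and no differences between clones. Changes were planted only in miRNAs above a minimum mean count, so arms of low count were not covered.

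Libraries that carry the same clone name were treated as pairs, because they stem from 1 cell line. Deviations of paired libraries from their group means correlated at 0.225 to 0.334 in the knockdown and at -0.0782 to 0.0692 in RIP-seq. Within a group the chi-square per degree of freedom between libraries was 5.22 or more, above sampling noise, so each was counted as a sample. Nothing says that libraries of a clone came from more than 1 culture, so p-values measure the spread between clones.

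The members and lists were chosen with earlier results of these data known. The named miRNAs are the 9 members, both miR-30c 3p arms, the 3 miRNAs most correlated over 15 libraries with the guide profile and the 3 with the 3p profile, and the miRNA with the most reads. Alternatives were TMM factors, DESeq2, no filter, no block, totals without the largest miRNA (miR-10a-5p or miR-6080) and each clone left out, and for arm ratios limma, other minimum counts (300 or none), no block and each clone left out.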

Additional observations from a re-analysis of the deposited data

How the results depend on the processing

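Of 391 values of single arms and hairpins recomputed under the alternatives, 336 kept their direction and side of the threshold, 28 lost a call, 9 gained one and 18 changed sign. No alternative changed the direction of a guide arm in the 4 comparisons of levels. The cause of the changes was not tested.

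Members called after FTO siRNA were 1 higher and 1 lower with TMM factors and 3 lower with DESeq2, against 2 and 0. With 1 clone left out 0 to 3 were higher, where 0 is without FTO1C1 (3 higher at an unadjusted p under 0.05 in edgeR). Of the arm ratios, 0 to 2 were called lower with 1 clone left out, and 0 with limma (3 at an unadjusted p under 0.05, and 4 in edgeR without FTO1C1). For m6A against input, 0 members were higher with TMM factors or DESeq2 and 0 to 1 with 1 clone left out. With at least 300 reads per arm 0 hairpins were lower, since miR-30b could not be tested.

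The sign turned for hsa-miR-30c-1-3p with FTO siRNA (-0.25 with TMM factors, -0.26 with DESeq2), and against IgG (-0.50, -0.54, and -0.45 without miR-6080 in the totals, -0.17 to 0.66 with 1 clone left out). Against input hsa-miR-30b-3p was -0.39 with TMM factors and -0.42 with DESeq2. Without miR-6080 in the totals the miR-30c 3p arms were 0.29 and 0.23 in the m6A precipitate, and hsa-miR-30b-3p 0.63 and hsa-miR-30c-1-3p 0.90 in the IgG precipitate. With 1 clone left out, hsa-miR-30c-2-3p ranged from -0.15 to 0.11 with FTO siRNA and from -0.48 to 0.07 for m6A against input, hsa-miR-30c-1-3p from -0.49 to 0.36 for m6A and from -1.01 to 0.15 for IgG against input, and the arm ratio of miR-30d against input from -0.70 to 0.63.

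Without the cell line as replicate block no call of a member changed (miR-30a arm ratio -1.47), but over all miRNAs 37 were higher and 4 lower with FTO siRNA, against 118 and 12. Without FTO1C1 0 of 2363 passed. Depth limits the IgG precipitates most, where members had 0 to 59 reads per library. An adjusted p was not obtained in 7 cases, among them hsa-miR-30b-3p with FTO siRNA in DESeq2.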
